A study of Homo sapiens with 3 samples.

Results

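MicroRNA host genes are long noncoding RNA (lncRNA) genes that carry the hairpin of 1 or more microRNAs in their transcript. They were taken here as the lncRNA genes of GENCODE v44 whose symbol begins with MIR and ends with HG. The annotation held 83 such genes, and 82 of them had a row among the 58051 genes of the count files (MIR34BHG had none). The 82 host genes lay on 22 chromosomes, 41 on each strand. The cells were H9, an established line of human embryonic stem cells, wild type and untreated, grown without feeder cells in Essential 8 Flex medium on vitronectin. RNA-seq was done on 3 replicate libraries of this 1 condition after depletion of ribosomal RNA, so that there is no second group to compare with and every value below is a description of these cells. The labels do not say whether the replicates came from separate cultures, and the spread between them may be technical. The libraries held 10390984, 12024802 and 8655155 counted reads.

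A primary microRNA transcript is cut in the nucleus by DROSHA and its partner DGCR8, which release the hairpin. The hairpin is exported by XPO5 and trimmed by DICER1 to a mature microRNA, which guides an Argonaute protein to messenger RNAs that pair with its seed, bases 2 to 8. RNA-seq of long RNA reads the host transcript and not the mature microRNA, so host levels say nothing of how much mature microRNA was made. In pluripotent stem cells the miR-302/367 cluster is the best known of these units, and the RNA-binding protein LIN28A blocks the maturation of let-7.

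The mature microRNAs of the hosts described first are shown to let their seeds be compared. Seeds are in capitals, and the sequences are those of RefSeq on GRCh38.p14. MIR302CHG encodes these 5 microRNAs of the miR-302/367 cluster, of which the miR-302 members share the seed AAGUGCU:
miR-302a-3p: uAAGUGCUuccauguuuugguga
miR-302b-3p: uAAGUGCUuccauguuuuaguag
miR-302c-3p: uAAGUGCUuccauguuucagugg
miR-302d-3p: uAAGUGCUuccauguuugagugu
miR-367-3p: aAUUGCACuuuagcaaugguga
MIR17HG encodes the miR-17-92 cluster, known for promoting proliferation, and the members below are its miR-17, miR-18, miR-19 and miR-92 families:
miR-17-5p: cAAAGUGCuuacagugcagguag
miR-20a-5p: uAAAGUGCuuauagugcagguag
miR-18a-5p: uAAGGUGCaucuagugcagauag
miR-19a-3p: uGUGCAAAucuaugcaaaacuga
miR-19b-3p: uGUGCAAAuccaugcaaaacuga
miR-92a-3p: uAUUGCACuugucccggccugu
The last of these has the seed AUUGCAC, the same as miR-367-3p, and this was the 1 seed that MIR302CHG and MIR17HG had in common. MIR497HG encodes the pair miR-195 and miR-497, which share the seed AGCAGCA. MIR205HG encodes miR-205, a microRNA of stratified epithelia, and MIRLET7A1HG encodes let-7a, a microRNA of differentiated cells:
miR-195-5p: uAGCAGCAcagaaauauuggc
miR-497-5p: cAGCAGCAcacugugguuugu
miR-205-5p: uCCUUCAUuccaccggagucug
let-7a-5p: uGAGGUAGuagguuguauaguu
RefSeq held 201 mature entries for 119 of the 129 hairpins that lie within the host genes, from 71 hosts. Among them 23 seeds occurred in 2 or more entries, and 15 seeds were shared between hosts.

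Levels are given in TPM, the count of a gene divided by its summed exon length and scaled to the same total in each library, so that genes can be compared per length. A host was called detected when it had more than 3 reads in every replicate. By this rule 37 of the 82 host genes (45.1%) were detected, against 24.3% of all 14157 lncRNA genes. The exons of host genes are longer than those of other lncRNA genes, with a median of 3950 bp against 882 bp, and a longer gene collects more reads at the same TPM. A mean of at least 1 TPM was reached by 29 host genes (35.4%), against 31.4% of all lncRNA genes, which is close to the background. The low end differed more, since 17 host genes (20.7%) were below 0.01 TPM, against 37.5% of all lncRNA genes. This limit nearly equals a rule of no read, as 5301 of the 5312 lncRNA genes below it had none. The longer exons of hosts bear on this share as well, and the part of length was not tested. Of these 17 hosts, 16 had no read in any replicate. For a single replicate this allows a level of up to 0.0828 to 2.94 TPM, depending on the length of the gene. Taking the median within each replicate, the median host was at 0.405 ± 0.0345 TPM and the median lncRNA at 0.0929 ± 0.0333 TPM (mean ± SD of the medians, n = 3), a difference larger than the spread between replicates. Taking the mean of each gene first, the medians were closer, at 0.472 TPM for hosts and 0.243 TPM for lncRNA genes.

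Other lncRNA families lay on both sides of the microRNA host genes. The SNHG genes, which host small nucleolar RNAs, were detected in 26 of 28 cases with a median level of 22.6 ± 0.536 TPM. The intergenic LINC genes were detected in 14.2% of 2204 cases. A further 112 lncRNA genes hold an annotated microRNA hairpin without bearing the host name, and 32.1% of these were detected. Protein-coding genes that hold a hairpin were detected in 90.1% of 912 cases, with a median of 15.8 ± 0.561 TPM, against 71.9% and 7.08 ± 0.232 TPM for all protein-coding genes. Host genes therefore sat between the SNHG and LINC families in the share detected.

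Levels of the host genes covered a wide range. Over 100 TPM there were 2 hosts, between 10 and 100 TPM there were 7, and between 1 and 10 TPM there were 20. A further 21 lay between 0.1 and 1 TPM and 15 between 0.01 and 0.1 TPM. Reads were concentrated in a few hosts, as the 3 with most reads took 75.3 ± 2.12% of all host reads and the 10 with most reads 93.7 ± 0.363%. All host genes together took 7837, 9139 and 8589 reads in replicates 1, 2 and 3, or 0.0836 ± 0.0136% of the counted reads and 2.39 ± 0.308% of those on lncRNA genes.

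**Figure D1:**
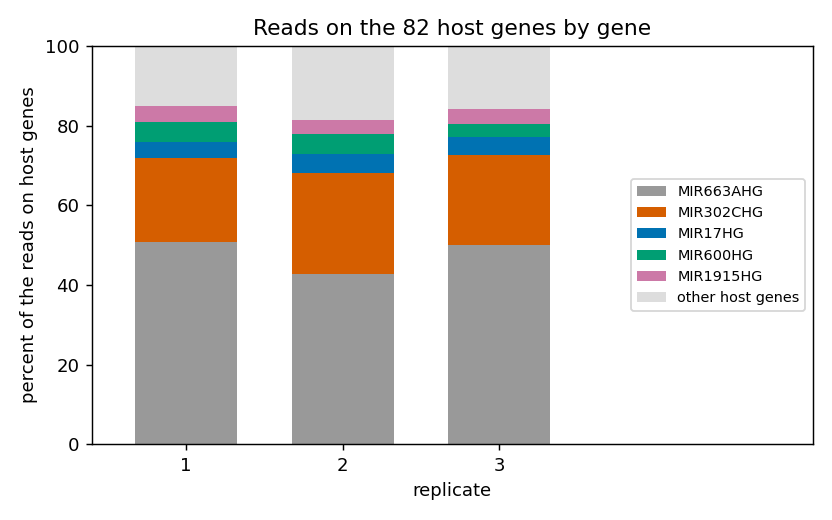
Percent of the reads on the 82 host genes (vertical axis) that fell on each of 5 named hosts and on the others, for each replicate. MIR663AHG took 47.8 ± 4.46% and MIR302CHG 23.0 ± 2.30% (SD, n = 3), and the same 2 genes led in every replicate.

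MIR302CHG, the host of the miR-302/367 cluster, had the highest level per length. It lies at chr4:112646476-112650051 on the minus strand of GRCh38. It was at 271, 331 and 377 TPM in replicates 1, 2 and 3, from 1638, 2327 and 1943 reads, with a mean of 326 ± 53.1 TPM. The level was lowest in replicate 1 and highest in replicate 3. The exons of MIR302CHG overlap those of LARP7, a gene for a binding protein of 7SK RNA, on the opposite strand over 1318 bp, or 56.7% of the MIR302CHG exons. LARP7 was at 120, 142 and 160 TPM, and the ratio of MIR302CHG to LARP7 was 2.25, 2.33 and 2.35 (mean 2.31 ± 0.0556). Both genes were thus lowest in replicate 1 and highest in replicate 3. Whether the counting used strand is not given in the sources used here, so reads of the 2 genes in the shared stretch cannot be told apart.

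Reads counted on the hairpins themselves bear on the same locus. Of the 129 hairpins within host genes, 84 had a row of their own in the count files, 22 had at least 1 read and 4 had more than 3 reads in every replicate. A read was thus seen on 26.2% of them, close to the 25.3% of all 1566 hairpin genes with counts, and the higher limit was passed by 4.76% against 1.60%. All 4 lay in MIR302CHG. MIR302C had 32, 65 and 66 reads in replicates 1, 2 and 3, MIR302A had 30, 33 and 47, MIR367 had 15, 22 and 27, and MIR302D had 13, 18 and 18. These hairpin genes, 68 or 69 bp long, ranked 3, 6, 8 and 10 by reads among all hairpin genes with counts, of which 25 passed the same limit. Among the hairpins of host genes that had a row, MIR302CHG accounted for 90, 138 and 158 of 99, 155 and 173 reads, or 90.4 ± 1.22%. Reads of the host transcript and of a freed hairpin are not separated by this assay. A row was held by 14 of the 52 exonic hairpins and by all 65 intronic ones. MIR302B, the 6 hairpins of MIR17HG and those of MIR663AHG, MIR497HG, MIR600HG, MIR205HG and MIR124-1HG had no row and were not analysed here.

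**Figure D2:**
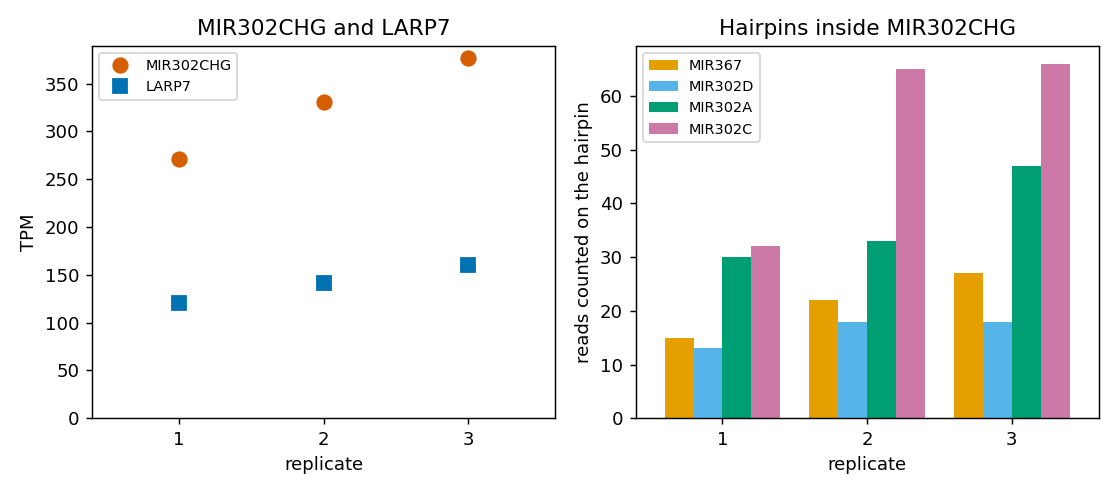
Left, level of MIR302CHG and of LARP7, the gene on the opposite strand, in TPM (vertical axis) in each replicate. Right, reads counted on the 4 hairpins of MIR302CHG that have a row, in each replicate; all 4 have their lowest count in replicate 1, as do both genes on the left.

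MIR663AHG, the host of miR-663a, took the most reads of any host. It lies at chr20:26167817-26251546 on the minus strand, next to the centromere. It had 3986, 3903 and 4288 reads, or 232, 195 and 292 TPM (mean 239.7 ± 49.1). The mean difference between MIR302CHG and MIR663AHG was larger than the SD of either, and MIR302CHG was higher in each replicate. Their order depends on the length that is used. With the longest transcript in place of all exons MIR663AHG was at 793 TPM and MIR302CHG at 288 TPM. Of the 75-base windows along the MIR663AHG exons 11.3% could not be placed at 1 position of the genome. Another lncRNA gene, which had no row in the count files, lies opposite 17.9% of these exons.

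Below these, 7 hosts lay between 10 and 100 TPM. MIR1915HG was at 28.5, 27.5 and 35.4 TPM (mean 30.5 ± 4.31) and MIR600HG at 25.9, 24.2 and 21.2 TPM (mean 23.8 ± 2.35). MIR497HG, host of the miR-195 and miR-497 pair that restrains the cell cycle, was at 27.2, 27.7 and 27.6 TPM (mean 27.5 ± 0.258) and varied least. Its exons lie to 38.2% on the opposite strand of those of C17orf49, which was at 1.34 TPM, and to 16.1% on that of the readthrough gene RNASEK-C17orf49, which had no read. How reads that match both of these opposite genes were counted is not given in the sources used here. MIR205HG was at 15.7, 24.2 and 19.4 TPM (mean 19.8 ± 4.30), with no exon of another gene on the opposite strand. MIR17HG was at 9.62, 11.2 and 13.6 TPM (mean 11.5 ± 2.02), and its level rested on 323, 438 and 390 reads spread over 12894 bp of exons. With its longest transcript as the length it was at 16.99 TPM. Of the MIR17HG exons 20.5% lie opposite those of another lncRNA gene, which had no row in the count files. The others in this range were the measured hosts of miR-124, described with the neural hosts.

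The remaining hosts among the 15 highest had between 4.74 and 8.04 TPM. They were MIR130AHG (8.04 ± 1.51 TPM), MIR1302-9HG (8.01 ± 0.602), MIR762HG (5.53 ± 0.622), MIR4453HG (5.37 ± 1.08), MIR3677HG (5.14 ± 1.26) and MIR4733HG (4.74 ± 0.734). Several of these share sequence with other genes. MIR762HG lies opposite exons of other genes over 32.9% of its exons, mostly those of a lncRNA gene (3.99 TPM) over 25.9%. MIR1302-9HG lies near a chromosome end in a duplicated region, and 88.5% of its windows could not be placed at 1 position. It also lies opposite exons of WASHC1 (2.60 TPM) over 14.2% of its exons. MIR3677HG overlaps exons of RNPS1, a splicing factor gene at 115 TPM, on the opposite strand over 11.3% of its exons. Of the MIR3677HG windows 24.3% could not be placed at 1 position. MIR4733HG lies opposite exons of NF1, a gene for a negative regulator of RAS, over 29.1% of its exons, and had 6 reads in each replicate.

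Neighbors in the order of levels could mostly not be separated. Of 28 neighboring pairs among the 29 hosts with at least 1 TPM, 5 differed by more than the larger SD of the pair and 23 did not. The 5 pairs were MIR302CHG over MIR663AHG, MIR663AHG over MIR1915HG, MIR497HG over MIR600HG, MIR205HG over MIR124-1HG, and MIR1302-9HG over MIR762HG. Some of these orders depend on the length used. With the longest transcript as length, MIR663AHG was above MIR302CHG and MIR124-1HG (16.7 TPM) above MIR205HG (15.7 TPM). MIR762HG (6.30 TPM) was then also above MIR1302-9HG (6.03 TPM).

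**Figure D3:**
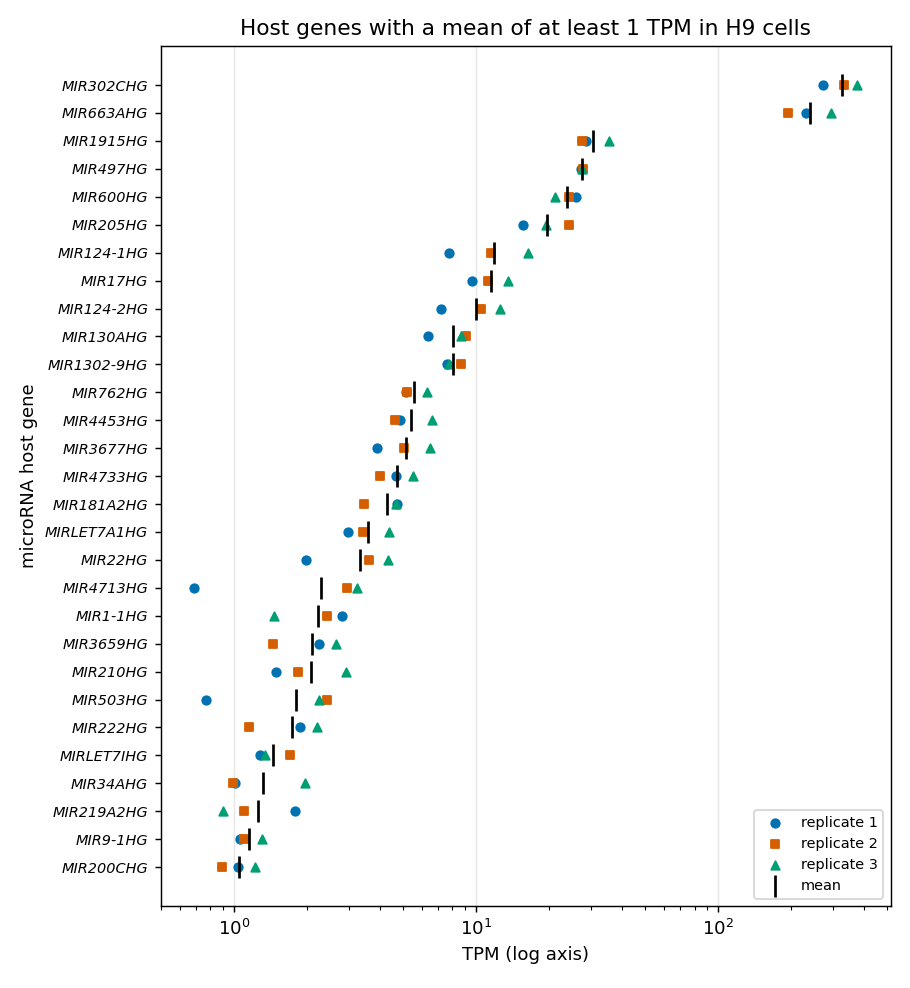
Level in TPM (horizontal axis, log scale) of the 29 host genes with a mean of at least 1 TPM, with a symbol for each replicate and a bar for the mean. MIR302CHG at 326 TPM and MIR663AHG at 239.7 TPM stand above MIR1915HG, the next host, at 30.5 TPM.

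The hosts were next grouped by where their microRNAs are known to act. The lists hold only 2 to 8 measured hosts each, and their counts stand beside 45.1% detected among all hosts and 24.3% among all lncRNA genes. H9 identity was checked on marker genes first. All 8 markers of pluripotent cells were detected at 275 to 2576 TPM, among them POU5F1, NANOG and SOX2. Markers of other lineages were low, with at most 22.3 TPM for MIXL1 of early mesoderm, 14.6 TPM for MAP2 of neurons and 14.6 TPM for COL1A1 of fibroblasts. The marker counts that follow stand beside 71.9% detected among all 19629 protein-coding genes. Of the neural markers 3 of 4 were detected, and of those of endoderm and liver 4 of 5. Detection also held for 2 of 3 fibroblast, 2 of 5 mesoderm and muscle and 1 of 2 endothelial markers. None of the 3 blood markers was detected, and ALB, HBB and MYOD1 had no read.

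In the list for pluripotency and proliferation, both measured hosts, MIR302CHG and MIR17HG, were detected. The let-7 list stood well below it, with all 3 measured hosts detected at low levels. MIRLET7A1HG was at 2.97, 3.41 and 4.36 TPM (mean 3.58 ± 0.708), MIRLET7IHG at a mean of 1.45 ± 0.231 and MIRLET7BHG at 0.601 ± 0.232 TPM. MIRLET7A1HG lies opposite LINC02603 (5.04 TPM) over 27.9% of its exons. The let-7 seed GAGGUAG occurred in microRNAs of 7 hosts, and these hosts summed to 5.79 TPM, against 326 TPM for the 1 host of the seed AAGUGCU. These values cover only the lncRNA genes with the host name. Any microRNA with either seed in another gene is left out, so they are not totals of a family. The level of MIR302CHG may also include reads of LARP7 in the stretch they share.

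Of 8 measured neural hosts 3 were detected (37.5%), a share between those of all lncRNA genes (24.3%) and of all hosts (45.1%). Both measured hosts of miR-124, the most abundant microRNA of neurons, were detected and were among the highest of all. MIR124-1HG was at 7.75, 11.5 and 16.4 TPM (mean 11.9 ± 4.35) and MIR124-2HG at 7.14, 10.5 and 12.5 TPM (mean 10.1 ± 2.72). Both were lowest in replicate 1 and highest in replicate 3, and no other gene lay opposite their exons. MIR9-1HG, host of a microRNA of neural progenitors, was at 1.06, 1.10 and 1.31 TPM (mean 1.16 ± 0.133). Beside these hosts, the neural markers MAP2, SOX1 and PAX6 were at 14.6, 2.97 and 1.74 TPM, and NEUROD1 at 0.0312 TPM was not detected. The share of other cells in the cultures was not tested. The hosts MIR219A2HG (1.26 TPM), MIR7-3HG (0.171), MIR325HG (0.0931), MIR9-3HG (0.0499) and MIR137HG (0.0133) were not detected, the first with 3 to 7 reads in a replicate.

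Of 6 measured blood and immune hosts 1 was detected (16.7%), beside 45.1% of all hosts and 24.3% of all lncRNA genes. MIR181A2HG, whose microRNAs act in lymphocytes and many other cells, was at 4.73, 3.44 and 4.69 TPM (mean 4.29 ± 0.733). MIR142HG and MIR223HG, hosts of microRNAs found across blood cells and in myeloid cells, had no read in any replicate. For a single replicate this allows at most 0.822 and 0.301 TPM. MIR155HG, induced in activated lymphocytes, had 1, 5 and 3 reads and a mean of 0.636 ± 0.373 TPM. MIR3142HG, which holds the hairpin of miR-146a, was at 0.0463 TPM and MIR181A1HG at 0.0288 TPM, and neither was detected.

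Hosts of muscle and heart microRNAs were both detected at low levels. MIR1-1HG had 9, 9 and 4 reads (2.23 ± 0.691 TPM) and MIR133A1HG had 10, 8 and 5 (0.500 ± 0.142 TPM). Among endothelial and mesenchymal hosts 3 of 5 were detected, namely MIR497HG, MIR503HG at 1.81 ± 0.909 TPM and MIR100HG at 0.0843 ± 0.0504 TPM. MIR31HG (0.0378 TPM) and MIR99AHG (0.0129 TPM) were not. Among epithelial and endodermal hosts 3 of 5 were detected, MIR205HG far above MIR194-2HG (0.667 ± 0.0669 TPM) and MIR122HG (0.475 ± 0.167 TPM), the host of the main liver microRNA. MIR200CHG had 1 read in each replicate, and MIR217HG, host of a pancreatic microRNA, had none.

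All 6 stress-responsive hosts were detected, at 0.213 to 3.31 TPM. MIR22HG, which responds to DNA damage and other stresses, was at 1.98, 3.61 and 4.35 TPM (mean 3.31 ± 1.21). MIR210HG, induced by hypoxia, was at 1.49, 1.85 and 2.91 TPM (mean 2.08 ± 0.738). MIR34AHG, a p53 target, was at 1.01, 0.987 and 1.97 TPM (mean 1.32 ± 0.558). These 3 had their highest level in replicate 3, as did MIR193BHG and MIR29B2CHG but not MIR23AHG. Replicate 3 was also the highest for 43.5% of the lncRNA genes with at least 20 reads in every replicate. Of the stress-responsive hosts only MIR34AHG reached that minimum. MIR193BHG, MIR29B2CHG and MIR23AHG lay at 0.557, 0.469 and 0.213 TPM. The exons of MIR23AHG lie over 12.1% opposite those of ZSWIM4 (32.9 TPM) and those of MIR29B2CHG over 8.27% opposite those of CD46 (30.1 TPM), and they had only 9 to 13 and 8 to 14 reads in a replicate. Reads of host and opposite gene in the shared stretches cannot be told apart. The exons of MIR22HG had no ambiguous window on the primary chromosomes, but all of its windows (100%) also matched an alternate contig, as did 82.6% of those of MIR210HG in all, so that their levels depend on whether the reference of the alignment held such contigs, which is not given in the sources used here.

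**Figure D4:**
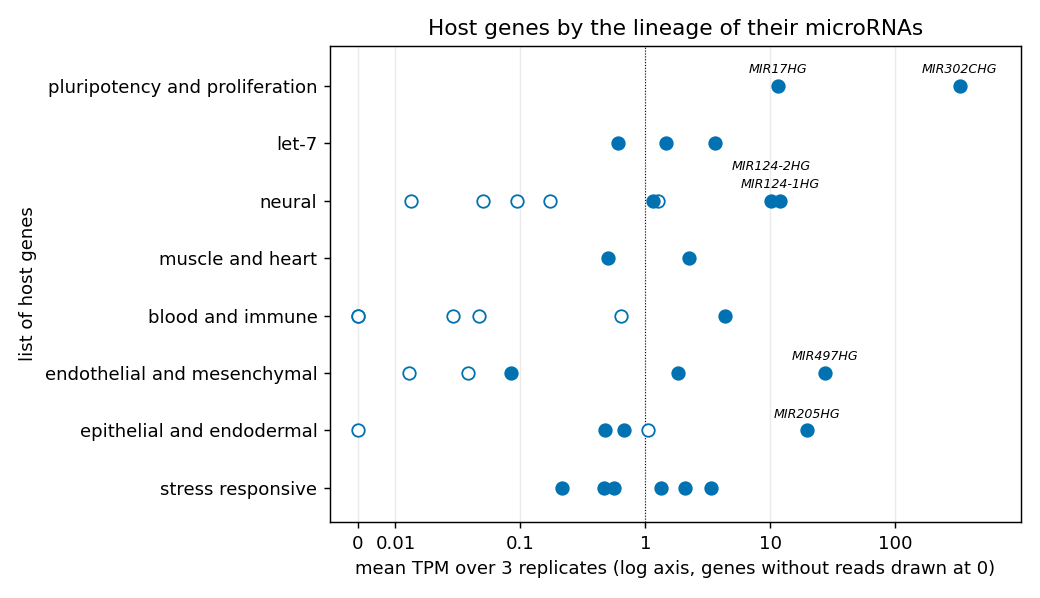
Mean level in TPM over 3 replicates (horizontal axis, log scale, hosts without a read drawn at 0) of each measured host gene in 8 lists; filled points are detected and open points are not. MIR302CHG at 326 TPM stands apart, and 2 blood and immune hosts share the point at 0.

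The genes of the microRNA pathway were all detected, 15 of 15, with a median of 47.3 TPM over the means of the genes. Of all 19629 protein-coding genes 71.9% were detected, with a median of 7.10 TPM on the same basis. For cropping of the hairpin, DROSHA was at 85.2 ± 3.64 TPM and DGCR8 at 47.3 ± 4.37 TPM. For export, XPO5 was at 102.6 ± 5.64 TPM and RAN, the GTPase that drives export, at 674 ± 38.2 TPM. DICER1 was at 43.6 ± 3.05 TPM and its partners TARBP2 and PRKRA at 40.4 ± 0.845 and 14.3 ± 0.951 TPM. Of the Argonautes, AGO1 (174 ± 13.5 TPM) and AGO2 (114 ± 9.21) were above AGO4 (14.8 ± 1.51) and AGO3 (6.94 ± 0.244). LIN28A had the highest level of the list at 2576 ± 64.7 TPM, and its relative LIN28B was at 217 ± 5.53 TPM. TUT4 and DIS3L2, which tail and degrade let-7 precursors held by LIN28A, were at 22.8 and 9.03 TPM.

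The position of the hairpin differed between hosts. In the annotation 80 hosts held a hairpin on their own strand, 54 of them 1 and 26 of them 2 or more, with up to 10 in MIR493HG, the host at an imprinted locus. Of the 129 hairpins 52 lay within exons, 65 within introns and 12 only partly within an exon. Hosts whose hairpins are all exonic were detected in 16 of 27 cases (59.3%) and hosts with only intronic hairpins in 12 of 37 (32.4%). The other hosts, with a partly exonic hairpin or with hairpins of both kinds, were detected in 9 of 16 cases (56.2%). The share of all lncRNA genes was 24.3%. The exonic hosts also have longer exons in all (median 4536 bp) than the intronic hosts (3614 bp), and the part of length in these counts was not tested.

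Promoter sequences, 250 bases before to 50 bases after the start, were held by RefSeq for 63 hosts. The 32 detected hosts had a median GC content of 64.7%, the 31 others 53.7%, and all 27305 promoters 58.3%. The motif TATAAA, searched on both strands, was in 1 of the 32 detected hosts (3.12%), in 6 of the 31 others (19.4%) and in 11.95% of all promoters. MIR302CHG went against this trend, since its promoter had a GC content of 28.0%, the lowest of the 63 hosts, beside 73.0% for MIR17HG and 75.3% for MIR663AHG.

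Replicates differed more on host genes than on other genes of the same read minimum. The 17 hosts with at least 20 reads in every replicate had a median coefficient of variation of 17.5% (0.938 to 42.2%), against 11.4% for 1502 lncRNA genes and 6.52% for protein-coding genes. Read numbers above that minimum were not matched between these sets. The level was highest in replicate 3 for 11 of the 17 hosts (64.7%), against 43.5% of those lncRNA genes. The median log2 ratio of replicate 3 to the mean of the others was 0.32 for the hosts, 0.05 for the lncRNA genes and -0.02 for the protein-coding genes. Replicate 3 also had the fewest counted reads, 8655155, and the part of the library in these ratios was not tested.

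**Figure D5:**
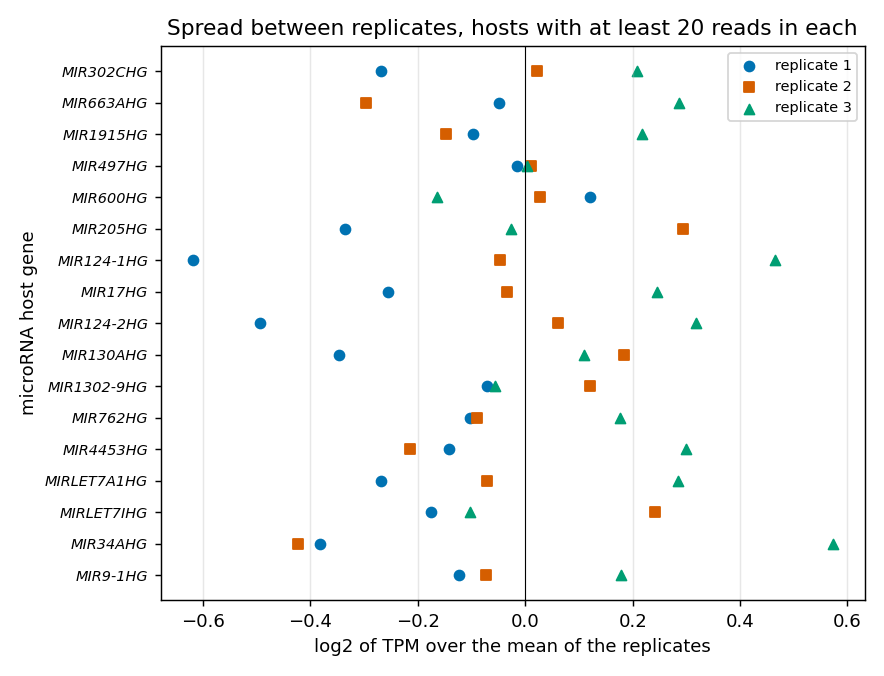
Deviation of each replicate from the mean of the replicates (horizontal axis, log2 of TPM over the mean) for the 17 host genes with at least 20 reads in each replicate. Replicate 3 is the highest for 11 of the 17 hosts and replicate 1 the lowest for 12, while the points of MIR497HG nearly coincide.

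Overlap with other genes touched many hosts, but at a limit of 10% their share was near the background. Less than 10% of the exons was shared for 73.2% of hosts, against 71.5% of all 14157 lncRNA genes. The median part shared was 2.72% for hosts and 0% for all lncRNA genes. Exons of 19 hosts lay by 10% or more opposite the exons of another gene, and 24 hosts shared no exon sequence with any gene. Among the 60 hosts with less than 10% of their exons shared, 26 were detected (43.3%), against 16.2% of 10122 lncRNA genes under the same limit. Under 5% of windows were ambiguous on the primary chromosomes for 68 hosts, and windows of other lncRNA genes were not mapped.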

How the data were processed

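RNA of untreated H9 cells was sequenced in triplicate after rRNA depletion (NEBNext Ultra II). Per the submitters' processing notes, reads were trimmed with Trim Galore 0.4.4 and aligned with TopHat2 2.1.1 to GRCh38, and Cufflinks 2.2.1 was also used. The authors deposited raw counts per Ensembl gene for each replicate. For the counting tool, the gene models it used and its handling of strand, the entry is: not given in the sources used here. Identifiers were matched to GENCODE v44 (56948 of 58051). TPM was computed from the counts and the union exon length in v44, which can differ from the annotation counted on. Exon overlap was taken with bedtools 2.31.1. Ambiguous windows were 75-base pieces every 10 bases with a mapping quality under 10 in minimap2 2.31. The TPM step was tested on simulated data, where 98.8% of 82 hosts fell on the simulated side of 1 TPM. With 1 condition no test was made. Errors are SDs over replicates. Limits at 0 reads (3 reads in a single replicate, the one with the highest TPM per read) cover counting error only. The host genes and lists were chosen with earlier results of these data known. Named are the 15 highest hosts, all measured members of the lists, the pathway genes, protein-coding genes over at least 10% of a named host's exons, and genes given as context for a named result, chosen after their values were seen. Alternatives were TMM factors (edgeR 4.0.16), DESeq2 1.42.0 factors, other length, count, level and overlap limits, thinning to 50% and leaving out each replicate.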

Additional observations from a re-analysis of the deposited data

Results flagged for a closer look

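MIR3171HG bears the name of a host but is annotated as a transcribed processed pseudogene and is not among the 82 lncRNA hosts. It had 11, 24 and 9 reads in replicates 1, 2 and 3, 44 in all, or 3.24 ± 1.31 TPM, and so passed the limit of 3 reads in every replicate.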

How the results depend on the processing

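The number of detected hosts (37) was 22 with at least 10 reads in every replicate and 66 with a read in any replicate, and 38 to 39 when a replicate was left out. Hosts with at least 1 TPM (29) became 50 at 0.1 TPM, and stayed at 29 without each replicate. Hosts below 0.01 TPM (17) became 32 below 0.1 TPM, and 17 to 21 without a replicate. Among hosts with under 10% exon overlap, which leaves out MIR302CHG and MIR663AHG, the share of counted reads was 0.0160% in place of 0.0836%, that of the 3 leading hosts 54.0% in place of 75.3%, and the median 0.316 TPM in place of 0.405. The median was 0.460 TPM with the longest transcript as length and 2.44 TPM over detected hosts alone. Without a replicate these ranged over 0.0757 to 0.0876%, 74.9 to 76.5% and 0.389 to 0.424 TPM. Of 43 named hosts with a read, 24 moved by more than 1 SD with the longest transcript (15 higher, 9 lower), and 0 did under TMM or DESeq2 factors. No paired analysis was possible because all 3 libraries are of 1 condition. Depth limits hosts of few reads: 24 hosts had 1 to 9 reads in all 3 libraries together.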
